A study of Mus musculus with 24 samples.

Results

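Rn7s1, Rn7s2, Rn7sk, Rpph1 and Rmrp are short structural RNAs of the mouse, and their 5 symbols matched 6 of the 54752 rows of the expression table, because Rmrp has 2 rows. They were chosen because they hold much of the TPM (a transcript level per unit of length that sums to 1000000 in each library). Their high levels are therefore a description and were not tested. The data are total RNA of bone marrow from 24 male C57BL/6 mice, with a library per mouse and 6 mice in each of 4 groups. FL-WT mice (wild type) and FL-KO mice (Nrf2-KO, without a working gene for the transcription factor Nrf2) lived singly housed on the International Space Station for 31 days, and their marrow was taken 2 days after landing. GC-WT and GC-KO mice were wild type and Nrf2-KO ground controls in matched single housing. The flight mice were 8 weeks old at transport, 3 weeks before launch, and the age of the ground controls is not given in the sources used here. The ground controls were kept and sampled in Japan and the flight mice were sampled in the United States, so flight and place of collection cannot be told apart. Flight was compared within WT (FL-WT vs. GC-WT), then within Nrf2-KO mice (FL-KO vs. GC-KO). Genotype was compared on the ground (GC-KO vs. GC-WT), then in flight (FL-KO vs. FL-WT). Where a sentence gives 4 values, those of comparisons follow this order, and those of groups run from ground WT to flight WT, ground Nrf2-KO and flight Nrf2-KO.

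Nfe2l2, the gene of Nrf2, was at 4.97 ± 1.25 TPM (SD, n = 6) in GC-KO and 3.06 ± 0.794 TPM (SD, n = 6) in FL-KO mice, against 21.3 ± 3.19 and 18.6 ± 5.93 TPM (SD, n = 6 each) in WT mice on the ground and after flight. All 13 marrow lineage markers had a mean of at least 1 TPM, whereas summed levels over the 24 libraries were at most 2.55 TPM for 4 skeletal muscle markers, 13.6 TPM for 3 bone matrix markers, 2.42 TPM for 2 fat markers and 0.04 TPM for 2 liver markers. The bone matrix sum was lower after flight, with a median of 6.32 TPM on the ground and 2.36 TPM after flight in WT mice, and of 7.39 and 1.79 TPM in Nrf2-KO mice. Some marrow lineage markers differed between groups as well. Of the 13 markers, 4, 6, 6 and 6 had an adjusted limma p under 0.1 as lower in the 4 comparisons and 3, 0, 3 and 0 as higher. Of all tested rows, 39.0%, 53.1%, 42.9% and 47.2% passed as lower and 0.994%, 0.299%, 3.13% and 1.91% as higher. With median-of-ratios scaling 2, 4, 5 and 6 markers were lower and 6, 4, 6 and 6 passed as higher. On that scale 20.6%, 19.1%, 28.3% and 31.9% of all tested rows passed as higher. The share of all tested rows that passed as lower on that scale is not given here. Counts of lower genes on it, here and in later lists, are therefore not read as particular to a list. For flight in Nrf2-KO mice the log2 fold change was -1.78 (SE 0.20, limma, adjusted p = 8.3e-06) for Slc4a1, the anion exchanger of red cells, and -1.06 (SE 0.31, limma, adjusted p = 0.00981) for Mpo, the myeloperoxidase of neutrophil precursors. In GC-KO vs. GC-WT it was -1.72 (SE 0.31, limma, adjusted p = 0.000416) for Mpo and -1.62 (SE 0.28, limma, adjusted p = 0.000411) for Ltf, lactoferrin of neutrophil granules. Not all markers of neutrophils and red cells fell. In GC-WT, GC-KO and FL-KO mice, S100a9 was at 16573 ± 4801, 22045 ± 3068 and 25261 ± 3875 TPM (SD, n = 6 each). Hbb-bs was at 53789 ± 16496, 77302 ± 12728 and 76960 ± 10092 TPM in the same groups (SD, n = 6 each). The part of these markers in the results below was not tested. The table holds no read counts, so the depth of each library is unknown and no counting error can be given. No 2 libraries were identical, with correlations of log2(TPM + 1) of 0.917 to 0.989 over 276 pairs.

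These RNAs do not code for proteins. 7SL, the RNA encoded by Rn7s1 and Rn7s2, is the scaffold of the signal recognition particle, which brings ribosomes that make secreted and membrane proteins to the endoplasmic reticulum. 7SK (Rn7sk) holds the elongation kinase P-TEFb, made of Cdk9 and cyclin T, in an inactive complex with Hexim proteins, Larp7 and the capping enzyme Mepce. Rpph1 is the RNA of RNase P, which trims the 5′ end of transfer RNA precursors, and Rmrp is the RNA of RNase MRP, a related enzyme that takes part in the processing of ribosomal RNA. All 4 RNAs are made by RNA polymerase III, and bone marrow holds dividing precursors and granule-forming cells that use the machinery they serve.

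The sequences of Rn7sk, Rmrp and Rpph1 are shown because sequence decides which of the 6 rows can be told apart. They were read from GENCODE M21 transcripts on GRCm38, 5′ to 3′, as DNA letters. Rn7s1 (ENSMUSG00000099021.1) and Rn7s2 (ENSMUSG00000099250.1) were identical in 300 of 300 bases. How the reads of 7SL were divided between these rows is therefore not given by sequence, and their sum, called 7SL from here, is the quantity to compare. Rn7sk (ENSMUSG00000065037.1, chromosome 9, 78175303 to 78175633, minus strand) is 331 bases long. Its first 150 bases are shown with each GATC in capitals, a letter group that recurs in the part of 7SK known to bind Hexim. GATC stood at bases 13, 42 and 64, and these were the only 3 in the whole RNA.

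Rn7sk, first 150 bases: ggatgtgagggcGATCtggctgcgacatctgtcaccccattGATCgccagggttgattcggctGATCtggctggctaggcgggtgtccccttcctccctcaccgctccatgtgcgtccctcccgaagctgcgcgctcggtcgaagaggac

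Rmrp has a row of the ribozyme type (ENSMUSG00000088088.1, chromosome 4, 43492788 to 43493058, minus strand, 271 bases) and a row of the lincRNA type (ENSMUSG00000115420.1, chromosome 4, 43492783 to 43493063, minus strand, 281 bases). The lincRNA model is the ribozyme model with 5 more bases at each end. It is printed with the 271 shared bases in capitals, so the rows of this RNA also differ only at their ends.

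Rmrp: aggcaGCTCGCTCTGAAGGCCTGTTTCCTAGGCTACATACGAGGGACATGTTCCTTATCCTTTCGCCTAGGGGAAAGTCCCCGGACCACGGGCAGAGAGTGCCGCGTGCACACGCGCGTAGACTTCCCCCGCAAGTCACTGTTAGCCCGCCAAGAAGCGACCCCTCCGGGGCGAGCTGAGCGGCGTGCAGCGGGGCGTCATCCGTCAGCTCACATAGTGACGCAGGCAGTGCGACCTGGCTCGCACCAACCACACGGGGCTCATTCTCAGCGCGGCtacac

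Rpph1 (ENSMUSG00000092837.1, chromosome 14, 50807449 to 50807767, minus strand) is 319 bases long. RNase P and RNase MRP share most of their proteins, and the first 300 bases of Rpph1 are printed with the longest exact runs it has in common with Rmrp in capitals, which were 2 runs of 9 bases. They began at bases 17 and 246 of Rpph1 and at bases 183 and 221 of Rmrp, counted from 1 at the first of its 271 bases in capitals.

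Rpph1, first 300 bases: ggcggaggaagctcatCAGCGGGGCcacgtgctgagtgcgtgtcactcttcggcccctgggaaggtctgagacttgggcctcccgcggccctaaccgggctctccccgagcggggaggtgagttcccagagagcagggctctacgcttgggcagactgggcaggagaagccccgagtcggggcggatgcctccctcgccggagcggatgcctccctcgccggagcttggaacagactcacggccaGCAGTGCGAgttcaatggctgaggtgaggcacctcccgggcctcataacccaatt

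The rows were rich in G and C, with 62.3% in 7SL, 58.0% in Rn7sk, 67.1% in Rpph1 and 64.2% in the Rmrp ribozyme row. Among 141767 transcripts searched, other genes with a match of at least 100 bases at 90% identity numbered 6 for 7SL, 11 for Rn7sk, 1 for Rpph1 and 1 for Rmrp. These copies were low. The 6 genes like 7SL summed to 5.70 to 24.6 TPM per library, of which Rn7s6, with 98.6% identity over 214 bases, had a mean of 12.7 TPM. The 11 genes like Rn7sk summed to 42.2 to 137 TPM, at most 0.109% of Rn7sk, and the main one was Gm24447, which matched Rn7sk in 100% of 241 bases and had a mean of 60.0 TPM.

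By mean TPM over the 24 libraries, Rn7s2 ranked 1 of all rows with 202484 TPM, Rn7sk ranked 2 with 134038 TPM and Rn7s1 ranked 3 with 106257 TPM. Rpph1 ranked 7 with 27059 TPM and Rmrp ranked 11 with 9869 TPM in its ribozyme row. Between and below them stood genes of red cells and neutrophils. The haemoglobin genes Hbb-bs, Hba-a2 and Hba-a1 had 67236, 60284 and 42891 TPM, and S100a9, S100a8 and Hbb-bt lay between Rpph1 and Rmrp with 21961, 20300 and 13683 TPM. The row just below Rmrp was the lincRNA Gm26917 with 8544 TPM. The lincRNA row of Rmrp ranked 30.

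Summed over the 5 symbols, the share of TPM ran from 35.4% in GC-KO mouse 11 to 59.6% in FL-WT mouse 5, a ratio of 1.68. In GC-WT mice the lowest, median and highest shares were 41.0%, 46.2% and 58.2%, with a mean of 48.8% ± 7.18 (SD, n = 6). FL-WT mice had 40.1%, 47.2% and 59.6%, with a mean of 48.0% ± 7.27 (SD, n = 6). The WT groups covered nearly the same range. GC-KO mice had 35.4%, 46.2% and 48.4%, with a mean of 44.7% ± 4.68 (SD, n = 6). FL-KO mice had 46.1%, 50.1% and 59.3%, with a mean of 51.2% ± 4.46 (SD, n = 6). Of the 6 FL-KO mice, 5 were above the highest GC-KO mouse, and the groups still overlapped. The difference of the means was 6.50 percentage points in FL-KO vs. GC-KO and 4.64 points without GC-KO mouse 11. It was -0.804 points in FL-WT vs. GC-WT and ran from -3.13 points without FL-WT mouse 5 to 1.08 points without GC-WT mouse 5, so its sign rested on single mice. The genotype difference on the ground was -4.05 points, and -2.38, -2.16 and -2.19 points without GC-WT mouse 3, GC-WT mouse 5 or GC-KO mouse 11. In flight it was 3.26 points, and 5.58, 1.69 and 1.63 points without FL-WT mouse 5, FL-WT mouse 8 or FL-KO mouse 2. Both genotype differences were smaller than the SD of a WT group.

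**Figure D1:**
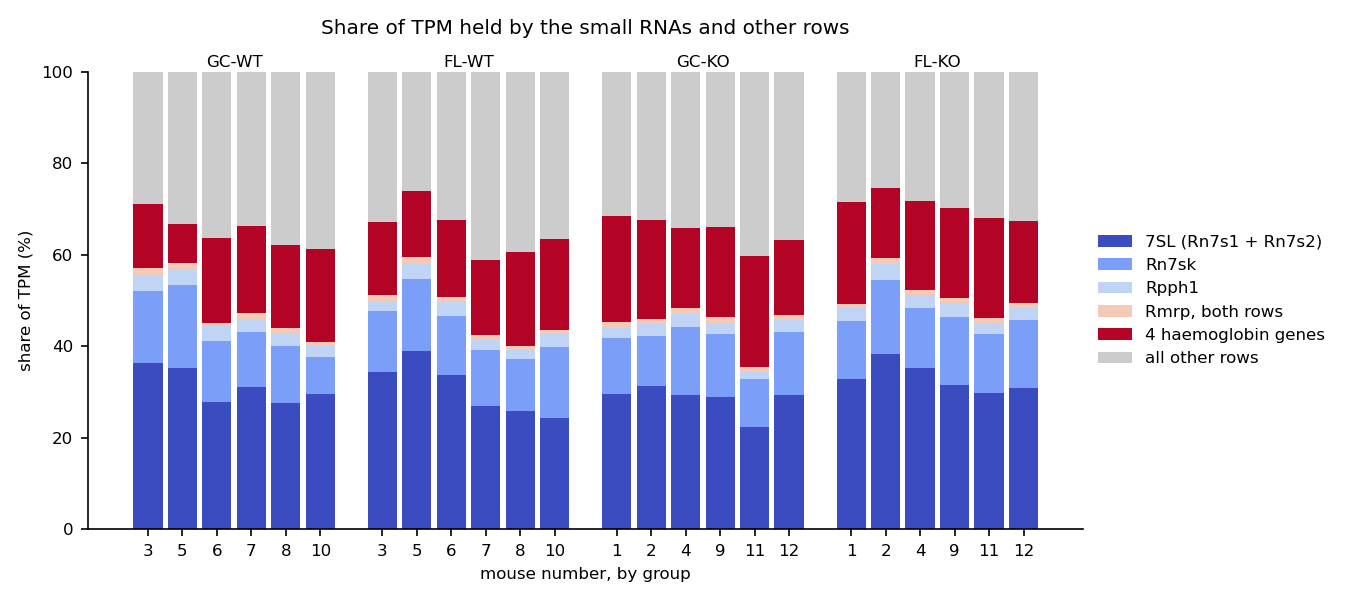
Share of TPM (%, vertical axis) in each of 24 libraries, ordered by group and mouse number, stacked as 7SL, Rn7sk, Rpph1, both Rmrp rows, 4 haemoglobin genes and all other rows. The small RNAs fill 35.4% to 59.6% of each bar, the lowest in GC-KO mouse 11 and the highest in FL-WT mouse 5.

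TPM divides by transcript length, so short RNAs hold a larger share of TPM than of sequenced bases. Weighted by annotated length, the 5 RNAs held 17.8% to 38.4% of the total, with means of 25.9% ± 5.19, 26.7% ± 6.32, 24.8% ± 3.55 and 31.4% ± 3.93 (SD, n = 6 each) in the 4 groups. The length that RSEM, the program behind the TPM, divided by is not given in the sources used here. These weighted values may therefore differ from the share of sequenced bases. The FL-KO mean was again the highest and the GC-KO mean the lowest. What this left for other rows was less in FL-KO than in GC-KO mice. All rows outside the small RNA, haemoglobin, mitochondrial, other misc_RNA, snRNA and snoRNA types were summed. They held 32.5% ± 3.24 of TPM in GC-KO mice against 27.1% ± 2.58 in FL-KO mice (SD, n = 6). This share is largely the remainder of the share of the members, so it is a description and no p is given. The haemoglobin genes held 20.5% ± 3.11 and 19.4% ± 2.59 in the same groups (SD, n = 6; exact permutation test, adjusted p = 0.744). In bulk marrow, fewer cells of a type and less RNA per cell cannot be told apart, and a share can move because any other row moves.

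7SL was the largest of these RNAs in each library. It had 275952, 303170 and 362784 TPM (lowest, median and highest) in GC-WT mice, and in FL-WT mice 243129, 303974 and 389314 TPM. In GC-KO mice the values were 222510, 293683 and 312688 TPM, and in FL-KO mice 296727, 321332 and 383914 TPM. The WT groups lay over each other, whereas 4 of 6 FL-KO mice were above the highest GC-KO mouse and 5 of 6 GC-KO mice were below the lowest FL-KO mouse. As a share, 7SL was 28.4% ± 3.14 of TPM in GC-KO mice against 33.1% ± 3.201 in FL-KO mice (SD, n = 6). In a fit of all rows with limma, the log2 fold change in FL-KO vs. GC-KO was 0.22 (SE 0.12, adjusted p = 0.130), which did not pass 0.1. In a two-sided exact permutation test of rank sums, p was 0.00866, and 0.0253 after adjustment over all tested rows, and 0.275% of all tested rows passed 0.1 in this test as higher. With any 1 of these 12 mice left out, the adjusted p of the exact test stayed between 0.0216 and 0.0499, the latter without FL-KO mouse 2. The fold change of 7SL in limma was -0.04 (SE 0.12, adjusted p = 0.819) in FL-WT vs. GC-WT, and the interaction of flight and genotype was 0.26 (SE 0.17, 95% interval -0.09 to 0.61, unadjusted p = 0.137), so the flight changes of the genotypes were not shown to differ.

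Within 7SL, the row Rn7s2 was higher than Rn7s1 in every library but that of GC-WT mouse 10. The ratio of Rn7s1 to Rn7s2 ran from 0.293 in GC-KO mouse 11 to 1.002 in GC-WT mouse 10. Since both rows hold the same bases, sequence cannot tell how the reads were divided between them. The source of this spread was not tested, and the rows are described only in brief. Rn7s1 ran from 50426 to 182723 TPM and Rn7s2 from 135199 to 260847 TPM over all libraries, and no pair of groups was free of overlap for either row. The log2 fold changes of Rn7s1 in limma were 0.37 (SE 0.19, adjusted p = 0.115) in FL-KO vs. GC-KO and -0.39 (SE 0.19, adjusted p = 0.110) in GC-KO vs. GC-WT, which fell to 0.23 and -0.25 without GC-KO mouse 11. Rn7s2 had its largest fold change, 0.22 (SE 0.13, adjusted p = 0.181), in FL-KO vs. FL-WT.

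Rn7sk had 81062, 129132 and 182683 TPM in GC-WT mice, and in FL-WT mice 113245, 130559 and 156954 TPM (lowest, median and highest). In GC-KO mice it had 104827, 130003 and 148525 TPM, and in FL-KO mice 127679, 139626 and 160978 TPM. Its medians were alike in 3 groups, and the lowest and the highest of all libraries were both GC-WT mice, 10 and 5. The coefficient of variation was 25.9% in GC-WT and 9.68% in FL-KO mice, a difference that was not tested. The log2 fold changes in limma were 0.04, 0.16, -0.04 and 0.07 in the 4 comparisons (SE 0.14 each). Their 95% intervals lay within -0.34 and 0.45. Rn7sk ranked 1 to 3 in every library, so quantile normalization, which leaves a row only the value of its rank, is not read for it.

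Rpph1 had 22517, 29908 and 35953 TPM in GC-WT mice, and in FL-WT mice 19539, 25837 and 33233 TPM (lowest, median and highest). The GC-KO mice had 16861, 24481 and 27504 TPM, and the FL-KO mice 24837, 28913 and 34430 TPM. All 6 GC-KO mice were below the median of GC-WT mice, and 4 of 6 FL-KO mice were above the highest GC-KO mouse. The log2 fold change in GC-KO vs. GC-WT was -0.32 (SE 0.14, limma, adjusted p = 0.0741) with TPM as deposited and 0.02 (SE 0.24, limma, adjusted p = 0.953) with median-of-ratios scaling. As deposited it passed 0.1 without reaching 2-fold. Of all tested rows, 42.9% passed 0.1 as lower at any fold, and 3.04% did so with at least 2-fold. The adjusted p rose to 0.154, 0.127 and 0.140 without GC-WT mouse 3, 5 or 6 and to 0.122 and 0.192 without GC-KO mouse 1 or 11 (limma). The exact rank-sum test gave p = 0.0649 for this comparison and, after adjustment, 0.132. In FL-KO vs. GC-KO the log2 fold change was 0.28 (SE 0.14, limma, adjusted p = 0.112), and 0.18 without GC-KO mouse 11. The interaction was 0.48 (SE 0.20, 95% interval 0.07 to 0.89), with a limma p of 0.0245 and an adjusted p of 0.99995. An unadjusted p under 0.05 was reached by 3.46% of all tested rows in the interaction, and an adjusted p under 0.1 by 0.0162%.

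Rmrp, in its ribozyme row, had 5860, 9736 and 13038 TPM in GC-WT mice, and in FL-WT mice 7615, 9541 and 13732 TPM (lowest, median and highest). It was at 8287, 9711 and 11747 TPM in GC-KO mice, and in FL-KO mice at 8501, 9921 and 11960 TPM. The medians of the 4 groups were close, and the extremes of all libraries were both WT mice, GC-WT mouse 6 and FL-WT mouse 5. Its log2 fold changes in limma were 0.04, 0.00, 0.07 and 0.04 (SE 0.16 each) in the 4 comparisons. Their 95% intervals lay within -0.33 and 0.41. The lincRNA row was at 2046 ± 602, 1995 ± 591, 2036 ± 348 and 1722 ± 261 TPM (SD, n = 6 each) in the 4 groups, and with both rows summed the fold changes were 0.02, -0.03, 0.06 and 0.00.

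**Figure D2:**
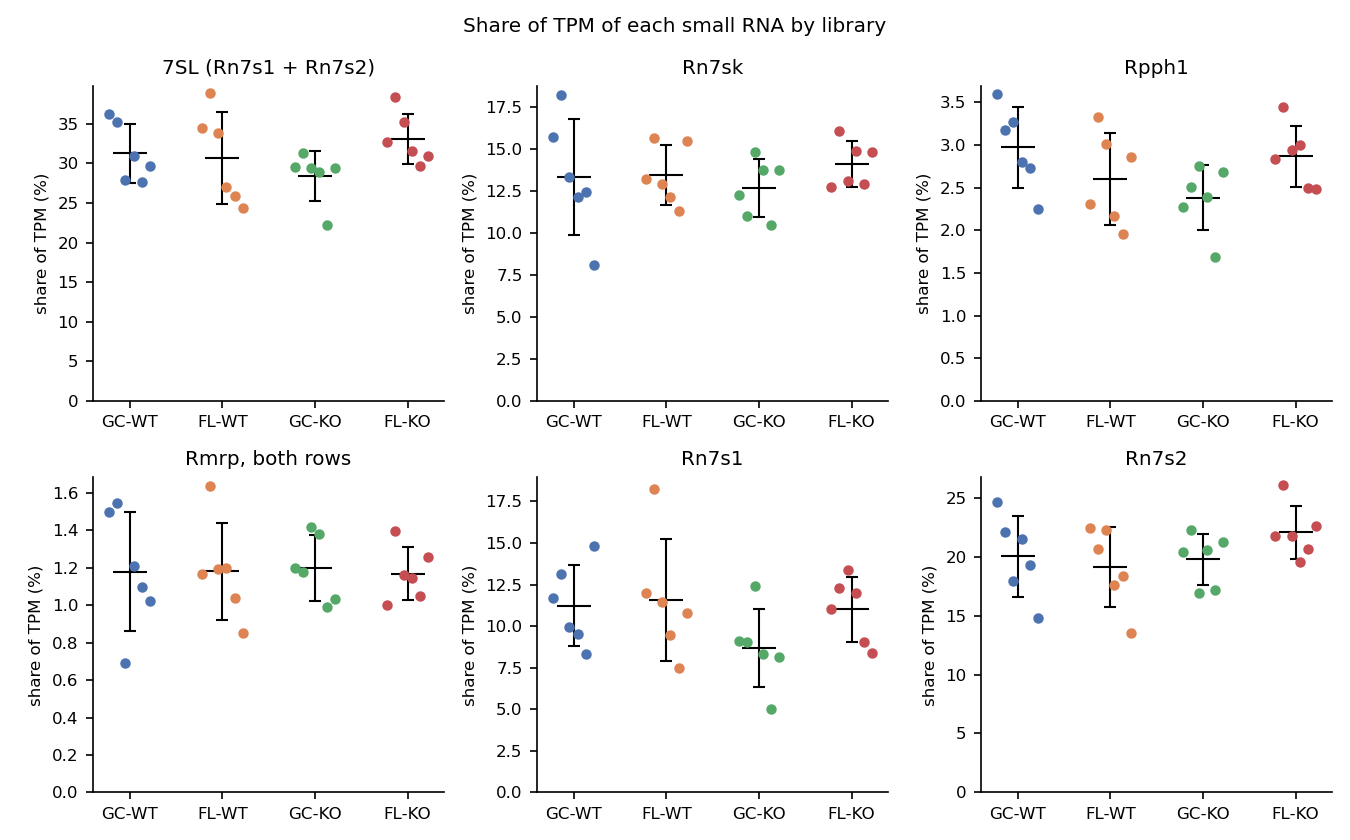
Share of TPM (%, vertical axes) of 7SL, Rn7sk, Rpph1, both Rmrp rows summed, Rn7s1 and Rn7s2 in each library (points), by group, with the group mean (long bar) and SD (short bars), n = 6. All groups overlap in every panel, and 4 of 6 FL-KO mice stand above the highest GC-KO mouse for 7SL and for Rpph1.

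In the order of group means, GC-KO was lowest and FL-KO highest for 7SL and Rn7sk, while for Rpph1 GC-KO was lowest and GC-WT highest. Neighbours in these orders differed by at most 1.08-fold for 7SL, 1.05-fold for Rn7sk, 1.10-fold for Rpph1 and 1.02-fold for Rmrp, and every pair of neighbours overlapped. No member row had an adjusted p under 0.1 and a 2-fold change in limma in any comparison. Of all tested rows, 0.938%, 2.13%, 3.04% and 8.36% met this rule as lower and 0.0647%, 0%, 0.129% and 0.0970% as higher in the 4 comparisons. Without the fold minimum, Rpph1 in GC-KO vs. GC-WT was the single member call, while 0.994%, 0.299%, 3.13% and 1.91% of all tested rows passed as higher and, for comparison, 39.0%, 53.1%, 42.9% and 47.2% as lower. At an unadjusted limma p under 0.05, 1 member row was lower in GC-KO vs. GC-WT, Rpph1, and none was found in the other comparisons. By the exact rank-sum test of single rows, none of the 6 rows had p under 0.05 before adjustment in any comparison, whereas 15.5%, 54.9%, 44.4% and 42.0% of all tested rows had an adjusted p under 0.1. No member had groups without overlap, a state met by 4.29%, 18.5%, 9.37% and 20.9% of all tested rows in the same order of comparisons.

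In TPM as deposited, most other rows had lower levels after flight and in Nrf2-KO mice, which was not so with the median-of-ratios scaling described next. Over all 12373 tested rows, the median log2 fold change was -0.24, -0.29, -0.22 and -0.25 in the 4 comparisons. Relative to these medians, 7SL was higher by 0.20, 0.51, 0.08 and 0.37, and Rn7sk by 0.29, 0.45, 0.18 and 0.32. Of the 6 member rows, 6, 6, 4 and 6 lay above the median of all rows. Above 0 lay 3, 5, 2 and 4 member rows, against 13.3%, 6.29%, 22.7% and 20.7% of all tested rows. The members were picked by their level, and they hold much of a total that is the same in every library. Where most rows fall, the rows that hold the total must on balance stay above the median. These counts are therefore partly set by that choice. The members also share libraries, so the counts are not independent of each other.

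Another scaling of the libraries moved all rows of a comparison together. Median-of-ratios scaling divides each library by its median ratio to an average library, and the mean factors were 1.33 ± 0.161, 1.03 ± 0.235, 1.05 ± 0.166 and 0.768 ± 0.108 (SD, n = 6 each) in the 4 groups. It brought the median of all rows to between -0.0012 and 0.03, and it moved the abundant rows of a comparison by nearly the same amount, so the members that changed sign were those below 0 by less than this amount, and the change of sign is not particular to them. On this scale the log2 fold changes of 7SL were 0.35, 0.67, 0.20 and 0.53 (SE 0.22 each, limma, adjusted p = 0.263, 0.0270, 0.463 and 0.0481). Rn7sk had 0.61 (SE 0.21, limma, adjusted p = 0.0332) in FL-KO vs. GC-KO and 0.48 (SE 0.21, limma, adjusted p = 0.0585) in FL-KO vs. FL-WT. Rpph1 had 0.73 (SE 0.24, limma, adjusted p = 0.0245) and 0.56 (SE 0.24, limma, adjusted p = 0.0477) in these comparisons. Rmrp had 0.45 (SE 0.25, limma, adjusted p = 0.173) and 0.44 (SE 0.25, limma, adjusted p = 0.135). In all, 4 member rows for flight in Nrf2-KO mice and 3 for genotype in flight had an adjusted p under 0.1 as higher with this scaling, beside 19.1% and 31.9% of all tested rows. In limma none did for flight in WT mice or for genotype on the ground, where 20.6% and 28.3% of all tested rows did, and 0 member rows had an unadjusted p under 0.05 there. The interaction of 7SL was 0.32 (SE 0.32, limma, adjusted p = 0.784) on this scale.

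**Figure D3:**
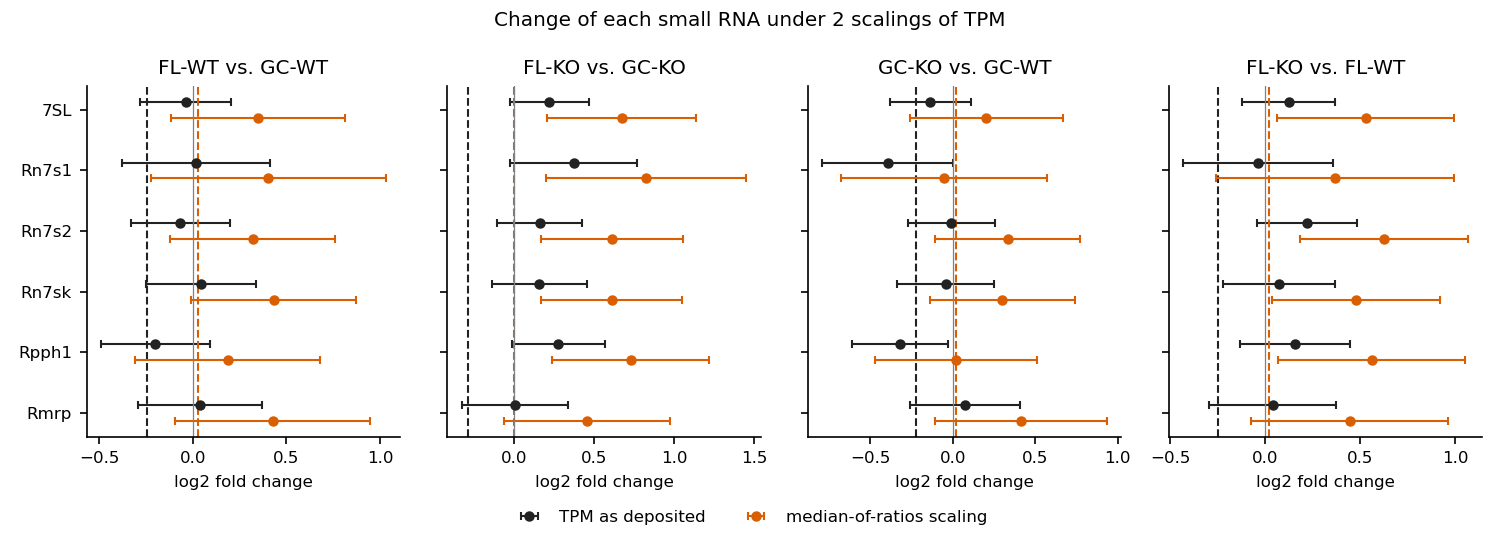
Log2 fold change (horizontal axes) of each small RNA in 4 comparisons, with 95% intervals from limma, for TPM as deposited (black) and with median-of-ratios scaling (orange). Dashed lines mark the median of all tested rows in the same colour, at -0.22 to -0.29 for TPM as deposited, and each orange point lies to the right of its black point.

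The members in turn set the level of the other rows, since all share 1000000 TPM. With the 6 member rows left out and the rest rescaled, the median of all other rows was -0.31, -0.21, -0.35 and -0.23. The number of rows with an adjusted limma p under 0.1 and a 2-fold decrease changed from 116 to 230, from 264 to 189, from 376 to 902 and from 1034 to 1186 in the 4 comparisons. The median stayed below 0 in every comparison.

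Ratios between RNAs of a library do not depend on its scaling. The ratio of 7SL to Rn7sk was 2.46 ± 0.625, 2.30 ± 0.391, 2.26 ± 0.312 and 2.35 ± 0.239 (SD, n = 6 each) in the 4 groups, and its log2 differences lay between -0.10 and 0.06. The ratio of Rmrp to Rpph1, the RNAs of the related enzymes, was 0.401 ± 0.0974, 0.463 ± 0.0969, 0.510 ± 0.0753 and 0.410 ± 0.0519. Its log2 difference was 0.38 (SE 0.20) in GC-KO vs. GC-WT and -0.31 (SE 0.12) in FL-KO vs. GC-KO (exact permutation tests, p = 0.0498 and 0.0325). The first of these was 0.21 without GC-WT mouse 6. The ratio of Rn7sk to Rpph1 was 4.45 ± 0.718 in GC-WT and 5.38 ± 0.607 in GC-KO mice (SD, n = 6; exact permutation test, p = 0.0390). The ratio of 7SL to the summed 1558 snoRNA and scaRNA rows, which guide the modification of other RNAs, was 39.4 ± 6.98 in GC-WT and 29.0 ± 3.79 in GC-KO mice. Its log2 difference of -0.43 (SE 0.13) had the smallest p of the 20 ratio tests (exact permutation test, p = 0.00866, adjusted p = 0.173). None of the 20 tests had an adjusted p under 0.1.

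**Figure D4:**
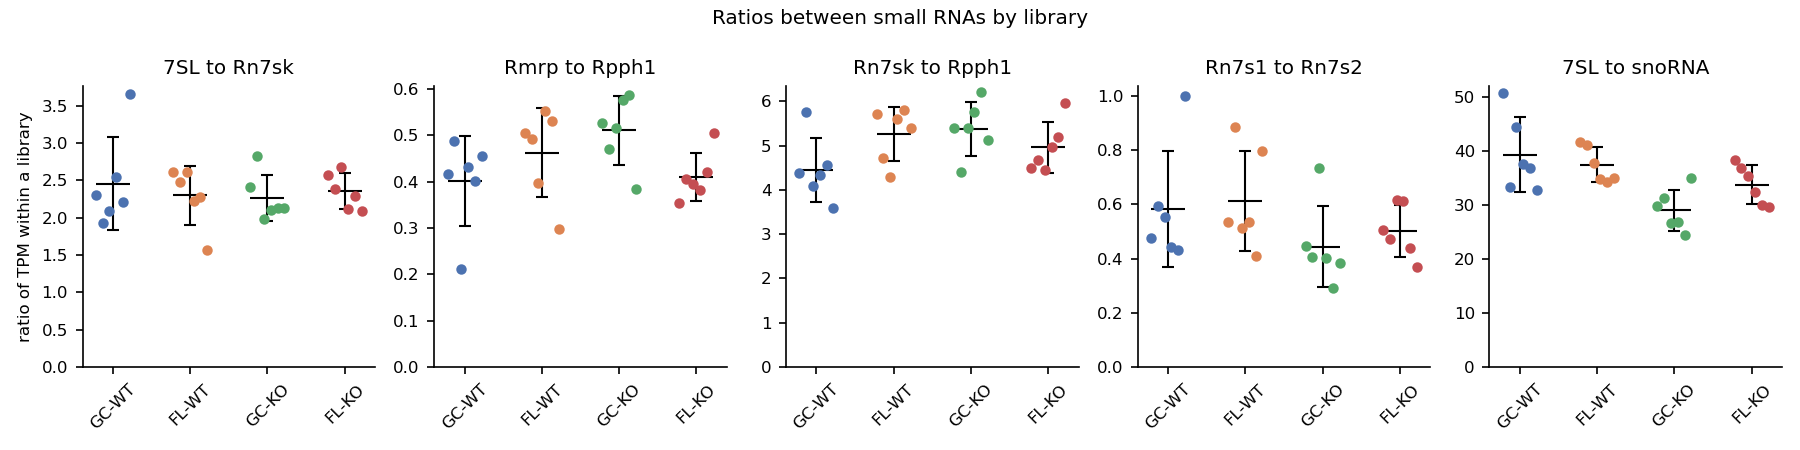
Ratios of TPM within a library (vertical axes) for 5 pairs of RNAs, by group, with a point per library, the group mean (long bar) and SD (short bars), n = 6. GC-WT mouse 10 stands alone at 3.66 for 7SL to Rn7sk and at 1.002 for Rn7s1 to Rn7s2, and GC-WT mouse 6 at 0.211 for Rmrp to Rpph1.

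Other short RNAs had other orders of the groups. The snRNA rows held 0.121%, 0.163%, 0.225% and 0.122% of TPM in the 4 groups. They were thus highest in GC-KO mice, where the 5 members were lowest (exact permutation tests of the rank sum against both other groups compared, p = 0.00216 each, the smallest that 6 against 6 mice allow, adjusted over 24 tests 0.0173). The snoRNA and scaRNA rows held 0.811%, 0.814%, 0.986% and 0.982% in the same order, with a difference of genotype in flight (exact permutation test, p = 0.00866, adjusted p = 0.0416). The level of Terc, the RNA template of telomerase, was 83.1 ± 13.6 TPM in GC-WT mice against 110 ± 13.5 TPM in GC-KO mice (SD, n = 6). Its log2 fold change was 0.40 (SE 0.11, limma, adjusted p = 0.00504), and 0.74 (SE 0.16, limma, adjusted p = 0.000816) with median-of-ratios scaling. After flight it was at 68.1 ± 5.63 TPM in FL-WT and 84.8 ± 6.33 TPM in FL-KO mice (SD, n = 6), with log2 fold changes of -0.27 and -0.36 against the ground that became 0.11 and 0.09 with median-of-ratios scaling. Of 14 rows of other short structural RNAs on the list, 3 were high enough to test. Rnu3a, the U3 RNA of ribosomal RNA processing, was at 0 to 47.0 TPM across libraries and had no adjusted p under 0.1.

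Within groups, the small RNAs tended to rise and fall together from mouse to mouse, though not every pair had an adjusted p under 0.1. Each library was set against the mean of its own group on the log2 scale, and 10 relations were computed over the 24 libraries with 100000 permutations within groups. Deviations of 7SL and Rmrp (both rows) had r = 0.72 (Spearman rho = 0.71, permutation p = 7.0e-05, adjusted p = 0.00035), and r = 0.66 without FL-WT mouse 5 and GC-KO mouse 11, the libraries farthest from the median of 7SL. Rn7sk and Rpph1 had r = 0.73 (rho = 0.75, permutation p = 6.0e-05, adjusted p = 0.00035), and r = 0.77 without GC-WT mice 5 and 10. For 7SL and Rpph1, r was 0.66 (rho = 0.65, permutation p = 0.00396, adjusted p = 0.0099) and 0.51 without FL-WT mouse 5 and GC-KO mouse 11. The pairs fell into closer and looser ones. The relation of 7SL and Rn7sk was weaker, with r = 0.42 (rho = 0.50, permutation p = 0.0430 and 0.0229, adjusted 0.0717 and 0.0331) and r = 0.31 without the same libraries. For Rn7sk and Rmrp, r was 0.46 (rho = 0.55, permutation p = 0.0930 and 0.0119, adjusted 0.133 and 0.0237). For Rpph1 and Rmrp, r was 0.35 (rho = 0.39, permutation p = 0.132 and 0.0825, adjusted 0.165 and 0.103). In each of the 4 groups, r was above 0 for all 6 of these pairs. The same r is not given here for pairs of other abundant rows, so these values have no baseline.

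The same deviations were set against other properties of the libraries. 7SL went down as the share of the 4 haemoglobin genes went up, with r = -0.66 (rho = -0.65, permutation p = 0.00025, adjusted p = 0.000833), r = -0.61 without FL-WT mouse 5 and GC-KO mouse 11, and r below 0 in all 4 groups. With the summed snoRNA share, r was 0.52 (rho = 0.51, permutation p = 0.0143, adjusted p = 0.0286) and 0.45 without these libraries. All points share the total of 1000000 TPM, and its part in these values was not tested. The trend of each library with transcript length (r = -0.12, permutation p = 0.636) and with GC content (r = 0.28, permutation p = 0.330) had no adjusted p under 0.1. Between groups, the GC trend did differ, with a mean rank correlation of level and GC content of 0.318, 0.304, -0.199 and -0.432 in the 4 groups, and this difference was not tested. Its part in the group differences was not tested.

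**Figure D5:**
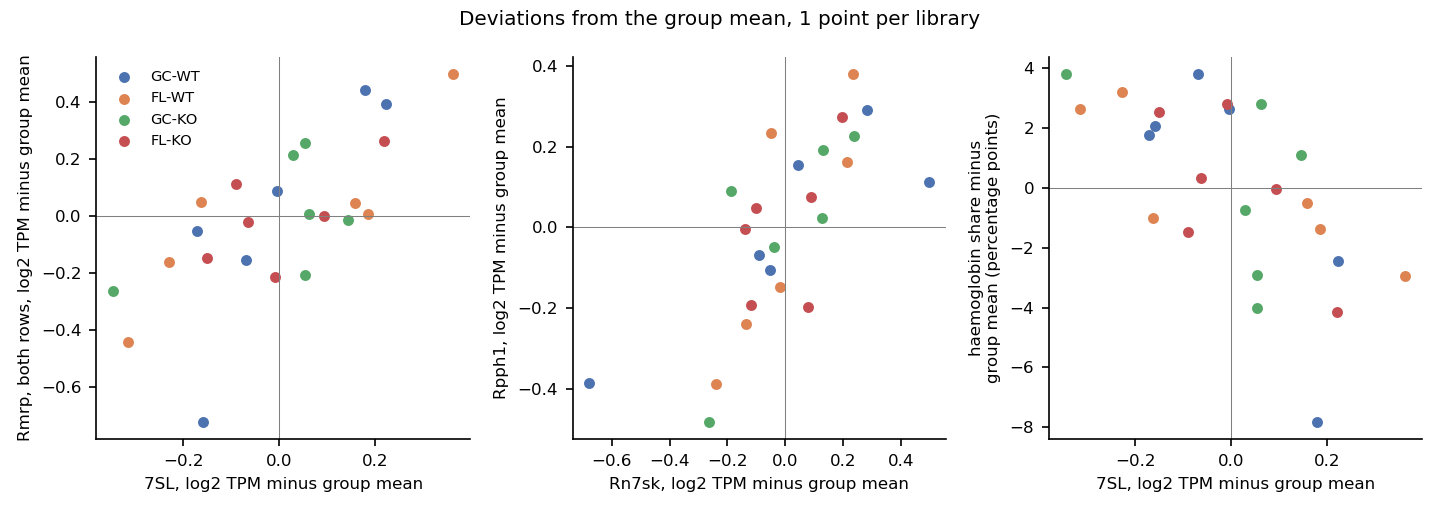
Deviation of each library from its group mean for 7SL and Rmrp, for Rn7sk and Rpph1 (both axes log2 TPM), and for 7SL (log2 TPM) and the haemoglobin share (percentage points), with a point per library coloured by group. The first 2 panels rise (r = 0.72 and 0.73) and the last falls (r = -0.66).

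The genes whose levels were most like each member over the 24 libraries, group differences included, were mostly other short RNAs. Among 5019 rows with a mean of at least 5 TPM, Rmrp was most like Scarna10 (Spearman rho = 0.73), Snora73a (0.65) and Scarna6 (0.65), which are small nucleolar or Cajal body RNAs. Rn7sk was most like Gm24447, which shares its sequence (0.64), the mitochondrial ribosomal RNA mt-Rnr2 (0.64) and the U3 RNA Rnu3b2 (0.63). For Rpph1 these were Gm24447 (0.63), the 7SL-like Rn7s6 (0.57) and Scarna10 (0.41). The summed 7SL was most like the scaRNA Gm25395 (0.58), Il1r2, a decoy receptor of interleukin-1 found on neutrophils (0.54), and Scarna6 (0.54). Of the single rows, whose division of reads is not given by sequence, Rn7s1 was nearest to Il1r2 (0.60), Gm25395 (0.59) and Snord17 (0.49), and Rn7s2 to Tsc22d3, a gene induced by glucocorticoids (0.43), Scarna10 (0.42) and Dusp1 (0.37). All rows of a library share its depth, which is unknown, and its total of TPM. The rho values describe 24 such libraries, and no test was made of them.

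The genes of proteins that work with these RNAs were compared by list, from their RNA levels. Of 7 genes of the 7SK particle and P-TEFb, 6, 7, 4 and 4 had an adjusted limma p under 0.1 as lower in the 4 comparisons. Of all tested rows, 39.0%, 53.1%, 42.9% and 47.2% did so. The median of the list was -0.44, -0.46, -0.43 and -0.39, below that of all rows in each comparison, whereas Rn7sk was above it. With median-of-ratios scaling the list median was -0.14, -0.11, -0.15 and -0.06, and with quantile normalization it was 0.05 for genotype in flight. Fewer genes passed 0.1 as lower with median-of-ratios scaling, at 3, 1, 3 and 2. The share of all tested rows that did so on that scale is not given here. As higher, 0, 0, 1 and 3 genes passed, beside 20.6%, 19.1%, 28.3% and 31.9% of all tested rows. Mepce, which caps 7SK, was at 7.92 ± 1.297, 5.91 ± 1.78, 4.44 ± 1.06 and 2.47 ± 0.285 TPM (SD, n = 6 each) in the 4 groups. For genotype its log2 fold change was -0.72 (SE 0.15, limma, adjusted p = 0.000695) on the ground and -0.96 (SE 0.15, limma, adjusted p = 1.03e-05) in flight. Both were smaller with median-of-ratios scaling, at -0.42 and -0.65, and still had an adjusted p under 0.1. Cdk9, the kinase of P-TEFb, had 18.3 ± 2.09 TPM in GC-WT mice against 11.1 ± 2.77 TPM in GC-KO mice (SD, n = 6), a log2 fold change of -0.70 (SE 0.16, limma, adjusted p = 0.00174), and of -0.38 with median-of-ratios scaling (adjusted p = 0.00246). The cyclin Ccnt2 was lower after flight, by -0.61 (SE 0.14, limma, adjusted p = 0.00322) in WT and -0.53 (SE 0.14, limma, adjusted p = 0.00529) in Nrf2-KO mice, and with median-of-ratios scaling by -0.28 (adjusted p = 0.0247) and -0.16 (adjusted p = 0.185). Ccnt1, the other main cyclin T, had -0.55 (SE 0.16, limma, adjusted p = 0.0123) in FL-WT vs. GC-WT.

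Of 10 measured genes of the signal recognition particle and its receptor, 1, 4, 5 and 5 had an adjusted limma p under 0.1 as lower and 0, 1, 1 and 0 as higher in the same order. Of all tested rows, 39.0%, 53.1%, 42.9% and 47.2% passed as lower and 0.994%, 0.299%, 3.13% and 1.91% as higher. The list medians of -0.15, -0.23, -0.19 and -0.32 were near those of all rows. With median-of-ratios scaling these medians were above 0, at 0.15, 0.15, 0.11 and 0.04. On that scale 5, 6, 5 and 4 genes were higher and 0, 1, 4 and 1 lower, beside 20.6%, 19.1%, 28.3% and 31.9% of all tested rows as higher. The share of all tested rows as lower is not given here for that scale. Srp68, a protein bound to the domain of 7SL that recognises signal peptides, had 9.81 ± 1.20 TPM in GC-WT mice against 5.49 ± 1.45 TPM in GC-KO mice (SD, n = 6). Its log2 fold change was -0.76 (SE 0.17, limma, adjusted p = 0.00107), and -0.45 with median-of-ratios scaling (adjusted p = 0.000810). Srpr, the receptor subunit, had -0.44 (SE 0.13, limma, adjusted p = 0.0103) in GC-KO vs. GC-WT and -0.13 (adjusted p = 0.0466) with median-of-ratios scaling. Srp54c and Srp54b, named after their values were seen, were the genes of this list that passed 0.1 with a 2-fold change. In GC-KO vs. GC-WT, Srp54c had -1.05 (SE 0.20, limma, adjusted p = 0.000529) and Srp54b had 1.47 (SE 0.28, limma, adjusted p = 0.000496). In FL-KO vs. GC-KO, Srp54b had -1.02 (SE 0.28, limma, adjusted p = 0.00691). They are near copies of Srp54a, which had -0.33 (SE 0.14, limma, adjusted p = 0.0665) in FL-KO vs. GC-KO and 0.05 with median-of-ratios scaling, so the division of reads among them is uncertain, and Srp54b had a mean of 0.924 TPM.

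Of 10 tested genes of RNase P and RNase MRP proteins, 0, 1, 1 and 3 had an adjusted limma p under 0.1 as lower, beside 39.0%, 53.1%, 42.9% and 47.2% of all tested rows, and an unadjusted p under 0.05 gave the same numbers. The list medians of -0.08, -0.09, -0.21 and -0.13 lay above those of all rows, and were 0.19, 0.26, 0.05 and 0.10 with median-of-ratios scaling. On that scale 4, 5, 3 and 4 genes were higher and 0, 0, 0 and 1 lower, beside 20.6%, 19.1%, 28.3% and 31.9% of all tested rows as higher. For this list and the later ones, the share of all tested rows as lower on that scale is not given here. Rpp21 had -0.30 (SE 0.13, limma, adjusted p = 0.0645) in GC-KO vs. GC-WT, where Rpph1 was also lower, and 0.01 with median-of-ratios scaling. In the same comparison Pop5 had 0.27 (SE 0.14, limma, adjusted p = 0.114), and 0.55 (adjusted p = 0.00172) with median-of-ratios scaling. Rpp25l had -0.39 (SE 0.14, limma, adjusted p = 0.0288) in FL-KO vs. FL-WT and -0.05 with median-of-ratios scaling, and Pop7 had -0.20 (SE 0.15, limma, adjusted p = 0.259) in FL-KO vs. GC-KO and 0.18 with that scaling. Of 29 tested genes of RNA polymerase III and its factors, which make these RNAs, 14, 16, 15 and 15 had an adjusted limma p under 0.1 as lower, a share near that of all tested rows. Their medians of -0.24, -0.26, -0.23 and -0.26 differed from those of all rows by at most 0.03. Maf1, a repressor of RNA polymerase III, was at 26.3 ± 3.92 TPM in GC-KO and 20.01 ± 2.54 TPM in FL-KO mice (SD, n = 6), a log2 fold change of -0.38 (SE 0.14, limma, adjusted p = 0.0347), and of 0.06 with median-of-ratios scaling. Polr3c, a subunit of the polymerase, had -0.30 (SE 0.14, limma, adjusted p = 0.0935) in FL-WT vs. GC-WT and 0.04 with median-of-ratios scaling. Gtf3c2, a subunit of the initiation factor TFIIIC, had -0.51 (SE 0.18, limma, adjusted p = 0.0284) in FL-KO vs. GC-KO and -0.15 (adjusted p = 0.335) with median-of-ratios scaling. Of 9 proteins that bind the ends of RNA polymerase III transcripts (La, Ro and Lsm), 0, 2, 1 and 1 had an adjusted limma p under 0.1 as lower and 0, 0, 1 and 0 as higher, and for flight in WT mice 0 had an unadjusted p under 0.05. The list medians of -0.06, -0.20, 0.08 and 0.02 lay above those of all rows by 0.18, 0.09, 0.30 and 0.27. With median-of-ratios scaling the medians were 0.30, 0.23, 0.33 and 0.38, and 5, 5, 8 and 8 of the 9 genes had an adjusted p under 0.1 as higher and 0 as lower, beside 20.6%, 19.1%, 28.3% and 31.9% of all tested rows as higher. Lsm2 had -0.43 (SE 0.16, limma, adjusted p = 0.0359) and Lsm5 0.31 (SE 0.12, limma, adjusted p = 0.0512) in GC-KO vs. GC-WT, and with median-of-ratios scaling they had -0.11 and 0.62. Lsm7 had 0.31 (SE 0.15, limma, adjusted p = 0.103) in FL-KO vs. FL-WT, and 0.70 (adjusted p = 0.000368) with median-of-ratios scaling. Lsm8 had -0.23 (SE 0.15, limma, adjusted p = 0.193) in FL-KO vs. GC-KO and 0.20 (adjusted p = 0.208) with that scaling.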

How the data were processed

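Total RNA of cryopreserved bone marrow was sequenced by the authors on the DNBSEQ-G400 from MGIEasy RNA Directional libraries, and how RNA was selected is not given in the sources used here. Reads were mapped to mm10 with STAR 2.6.1, and the deposited TPM values came from RSEM 1.3.1. Columns summed to 999999.5 to 1000001.1. The 54752 row IDs were matched to GENCODE M21 (54723 found).

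The members and lists were chosen with earlier results of these data known. Rows with a TPM above 1 in at least 1 library (12373, all 6 member rows included) entered a limma 3.58.1 fit (R 4.3.3) of log2(TPM + 1), with 1 mean for each group and all 24 libraries. The threshold was a Benjamini-Hochberg adjusted p under 0.1 over all tested rows, with at least a 2-fold change. A pseudocount of 1 lowers the fold changes of low genes. 7SL and both Rmrp rows summed were fitted with the summed rows in place of single rows. Exact permutation tests of rank sums (924 splits) and of ratios were two-sided. Mice are separate animals.

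Named from each list were the 2 genes with the largest change per comparison among those whose mean reached 5 TPM, and for each member the 3 rows with the highest Spearman rho. Sequence matches used blastn 2.17.0. Tests and figures were made with scipy 1.17.1, pandas 2.3.3, numpy 2.4.6 and matplotlib 3.10.9 in Python 3.11.15, and steps were tested on simulated data. Alternatives were a pseudocount of 0.1, other filters, median-of-ratios scaling, quantile normalization, a trend in limma, the compared groups alone, a replicate block, 7SL summed and each library left out. Summed Rmrp rows and TPM per total of all other rows were added after seeing the data. RefSeq promoters of the members were not used here, and the sequence of 7SL is not reported here.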

Additional observations from a re-analysis of the deposited data

Results flagged for a closer look

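Of 56 groups of 6 values examined, 6 had a single library far from the other 5, where the gap to its nearest neighbour took more than 0.625 of the whole range, and chance alone would mark about 1 group in 20. The 56 groups are not independent, since sums and ratios were built from the same rows. Their number is therefore not read against this rate. GC-KO mouse 11 had 222510 TPM of 7SL, against 288607 to 312688 TPM in the other GC-KO mice, and its 5 members summed to 354106 TPM, against 452577 to 483983 TPM. GC-WT mouse 10 had a ratio of 7SL to Rn7sk of 3.66, against 1.93 to 2.55 in the other GC-WT mice, and a ratio of Rn7s1 to Rn7s2 of 1.002, against 0.433 to 0.594. GC-KO mouse 4 had a ratio of Rn7s1 to Rn7s2 of 0.733, against 0.293 to 0.447 in the other GC-KO mice. GC-WT mouse 6 had a ratio of Rmrp to Rpph1 of 0.211, against 0.402 to 0.487. No interaction of flight and genotype had an adjusted p under 0.1 for any member in limma.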

How the results depend on the processing

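The calls on single members depended on the scaling and on few libraries, and no depth is known from TPM. Of the fold changes of the members under settings other than leaving out a library, 289 kept their direction and their side of the threshold and 27 turned direction. Where the cause is not part of the setting, it was not tested. Shares of all tested rows called are given for the values as reported and, as higher, for limma with median-of-ratios scaling. They are not given for the other settings. The counts below therefore describe how far the calls on members moved and are not a result about the members.

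Member rows with an adjusted limma p under 0.1 in FL-KO vs. GC-KO were 0 as reported, 4 with median-of-ratios scaling, 2 with a trend in limma, 2 with the compared groups alone and 0 to 2 with a library left out (1 without GC-WT mouse 10 and 2 without FL-WT mouse 5 or 8, GC-KO mouse 4, or FL-KO mouse 11 or 12). In GC-KO vs. GC-WT they were 1 as reported, 0 with a pseudocount of 0.1, 0 with no filter, 0 with median-of-ratios scaling, 2 with a trend, 2 per total of all other rows and 0 to 2 with a library left out (0 without GC-WT mouse 3, 5 or 6, or GC-KO mouse 1 or 11, and 2 without GC-WT mouse 8, FL-WT mouse 5 or 8, or GC-KO mouse 4). In FL-KO vs. FL-WT they were 3 with median-of-ratios scaling. By the exact rank sum, the counts in FL-KO vs. GC-KO were 1 with the exact test of the mean, 4 with median-of-ratios scaling and 0 to 2 with a library left out (2 without GC-KO mouse 2 or 4, or FL-KO mouse 12, and 1 without GC-KO mouse 11 or 12, or FL-KO mouse 9 or 11). They were 0 to 1 in both genotype comparisons with a library left out (1 without GC-WT mouse 8 or 10, or GC-KO mouse 4, on the ground, and 1 without FL-WT mouse 10 in flight). The exact rank-sum p of Rpph1 in FL-KO vs. GC-KO was 0.00433 with median-of-ratios scaling and 0.0303 to 0.126 with a library left out, and in GC-KO vs. GC-WT it was 0.485 with median-of-ratios scaling, where the direction turned, and 0.00866 to 0.126 with a library left out.

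Median-of-ratios scaling brought the median of all rows to 0.025, -0.0012, 0.019 and 0.018 in the 4 comparisons. It turned 7SL (0.35), Rn7s2 (0.32) and Rpph1 (0.19) for flight in WT mice, 7SL (0.20), Rn7s2 (0.33), Rn7sk (0.30) and Rpph1 (0.020) for genotype on the ground, Rn7s1 (0.37) for genotype in flight and the interaction of Rmrp (0.029). Quantile normalization leaves a row only the value of its rank. The member rows other than the lincRNA row of Rmrp ranked 1 to 12 in the libraries. The signs of these rows are therefore swaps of rank among few rows and are not read as instability. It turned Rn7s1 (-0.095) and Rmrp (-0.17) in FL-WT vs. GC-WT, Rn7sk (-0.069) in FL-KO vs. GC-KO, Rn7s2 (0.095) and Rn7sk (0.069) in GC-KO vs. GC-WT, Rn7sk (-0.095) in FL-KO vs. FL-WT, and the interactions of Rn7sk (-0.16) and Rmrp (0.34). Quantile normalization is not read for 7SL, which is the top row of every library, so that its fold change is 0 by construction. Summed into 7SL, Rn7s1 turned to -0.039 for flight in WT mice and to 0.12 for genotype in flight, and Rmrp with both rows summed turned to -0.034 in FL-KO vs. GC-KO. Per total of all other rows, Rn7s1 turned to -0.0053 for flight in WT mice and 0.048 for genotype in flight, and Rmrp to -0.045 for genotype on the ground and 0.17 for the interaction.

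With a library left out, fold changes that turned ran as follows. In FL-WT vs. GC-WT the ranges were -0.11 to 0.025 for 7SL, -0.13 to 0.13 for Rn7s1, -0.15 to 0.029 for Rn7s2, -0.090 to 0.14 for Rn7sk and -0.097 to 0.13 for Rmrp. In FL-KO vs. GC-KO Rmrp ran from -0.050 to 0.054. In GC-KO vs. GC-WT the ranges were -0.091 to 0.055 for Rn7s2, -0.18 to 0.059 for Rn7sk and -0.063 to 0.17 for Rmrp, in FL-KO vs. FL-WT -0.15 to 0.10 for Rn7s1 and -0.030 to 0.14 for Rmrp, and the interaction of Rmrp ran from -0.13 to 0.10. The log2 ratio of 7SL to Rn7sk ran from -0.15 to 0.038 for flight in WT mice, -0.16 to 0.026 for genotype on the ground and -0.055 to 0.092 for genotype in flight, and for flight in WT mice those of 7SL to snoRNA and Rn7s1 to Rn7s2 ran from -0.11 to 0.021 and -0.032 to 0.25.

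Ground and flight mice share mouse numbers. Correlations of the deviations of same-numbered mice ran from -0.0347 to 0.348 in Nrf2-KO and from -0.0513 to 0.397 in WT mice, were above 0.1 in 2 and 4 of 6 pairs, and were highest for the own number in 2 of 6 mice in each, so the numbers were not taken as pairing the mice. For 7SL alone the deviations of same-numbered mice correlated at 0.627 in WT and 0.693 in Nrf2-KO mice, and for the single member rows at -0.382 to 0.715 (6 pairs each). With the number as a replicate block, 2 member rows had an adjusted limma p under 0.1 in FL-KO vs. GC-KO, Rn7s1 (0.0186) and Rpph1 (0.0699), and 7SL had 0.0571 in place of 0.130. The share of all tested rows called with the block is not given here.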
